A study of Arabidopsis thaliana with 6 samples.

Results

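The genes described here are a block of neighbours on chromosome 4 of *Arabidopsis thaliana*, from AT4G15240 to AT4G15900 in the order of their identifiers. The count files held 81 rows for this block out of 28775 in all, and 51 of the 81 were kept because they had at least 10 reads in at least 3 libraries. In the TAIR10.1 annotation the block runs from 8703002 to 9027808 on chromosome 4, which is 324.8 kb. The block was chosen by the high share of its genes that differed between myc2 and Col-0 in these same libraries, so the differences between the genotypes given for its members are a description and carry no test.

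The RNA was poly(A) RNA from the aerial parts of seedlings 2 weeks old, raised at 22 °C in a cycle of 16 h light and 8 h dark. There were 6 libraries, 3 of the myc2 mutant and 3 of wild-type Columbia (Col-0), both grown alike with no treatment. MYC2 encodes a transcription factor that acts in jasmonate signalling, and for the mutant neither the allele nor its accession background was given in the sources read. Nothing says how many plants a library holds, so the spread between libraries may be partly technical.

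Tandem arrays arise when a gene is copied next to itself, and the copies often keep similar coding sequences while their expression can drift apart. Plant genomes also hold clusters of unrelated genes for one specialised metabolite, of which the triterpene cluster in this block, built around oxidosqualene cyclases and cytochrome P450s and studied chiefly in roots, is an example. The block holds both kinds: arrays of glutaredoxin-like genes, CASP-like membrane proteins and glucosyltransferases, and a triterpene cluster.

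Totals were 25439397 to 26597891 reads in the myc2 libraries and 21165967 to 30604815 in the Col-0 libraries, so that 1 read was worth 0.0344 to 0.0482 CPM, the unit used here for reads scaled to library size (with edgeR's TMM factors). MYC2 itself had 69.0, 73.5 and 71.0 CPM in the myc2 libraries, against 205, 197 and 175 CPM in the Col-0 libraries, and fell by 1.43 on the log2 scale (SE 0.0709, adjusted p = 2.94e-08 by edgeR). Per the file headers the 3 myc2 libraries carry one run name, Col-0 replicates 1 and 2 another and Col-0 replicate 3 yet another, so run and genotype cannot be told apart. The 6 shoot and leaf markers summed to 27821 to 28759 CPM in myc2 and 29857 to 35910 CPM in Col-0, and 4 seed markers to at most 0.0366 CPM in myc2 and 0.0964 CPM in Col-0. The 4 flower markers summed to 1.14 to 1.98 CPM in myc2 and 1.25 to 2.05 CPM in Col-0. The 5 root markers summed to 459 to 475 CPM in myc2 and 224 to 251 CPM in Col-0, nearly all of it PYK10, a beta-glucosidase of root and seedling endoplasmic reticulum bodies, while CASP1, CASP2, EXPA7 and COBL9 had at most 13 reads in any library. The part of PYK10-rich tissue in the differences below was not tested, and in whole shoots fewer cells of a type and less RNA per cell cannot be told apart.

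Of the 51 kept members, 50 were tested, and 32 of these were called different between myc2 and Col-0 at an adjusted p under 0.05 over all 18961 genes tested (edgeR quasi-likelihood test), beside 36.3% of all genes tested. Higher in myc2 were 13 members, beside 17.6% of all genes, and lower were 19, beside 18.7%. Differences of at least 2-fold were seen in 8 members, beside 6.55% of all genes: in 2 that were higher, RTL1 and CASPL1D1, beside 2.73% of all genes, and in 6 that were lower, the 5 glutaredoxin-like copies and CSLB06, beside 3.82%. Of the 32 called members, 20 differed by less than 1.5-fold. The 3 myc2 libraries lay entirely above or below the 3 Col-0 libraries for 35 of the 50 members, beside 49.7% of all genes. The median log2 fold change was -0.08 over the members and 0.01 over all genes tested.

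The called members were spread unevenly along the block. In the first stretch, from AT4G15240 to AT4G15400, 1 of 4 tested genes was higher and 2 were lower. All 9 kept genes from CASPL1D1 (AT4G15610) to AT4G15700 were called, 2 higher and 7 lower, and the last 6 of them in a row were lower in myc2. From PUX5 (AT4G15410), whose product binds the segregase CDC48, to MAA3 (AT4G15570), a helicase gene, 9 of 21 tested genes were higher and 3 were lower, with 4 higher neighbours in a row ending at IAGLU. From AT4G15710 to the end, 1 of 16 was higher and 7 were lower. Over all genes tested 17.6% were higher and 18.7% lower. The limits of these stretches were set by hand, so their counts are a description only. Among the 50 tested genes just before the block 30.0% were called, among the 51 just after it 37.3%, and over the rest of chromosome 4 36.4%, against 64% in the block, which was chosen for that share. ABCG42 and ABCG43, transporter genes before the first member, were called higher in myc2, and DI21 and SWEET17, after the last member, were called lower. The third gene on each side, ABCG30 before (log2 fold change 0.11, SE 0.229) and AT4G15930 after (-0.10, SE 0.0907), was not called.

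**Figure D1:**
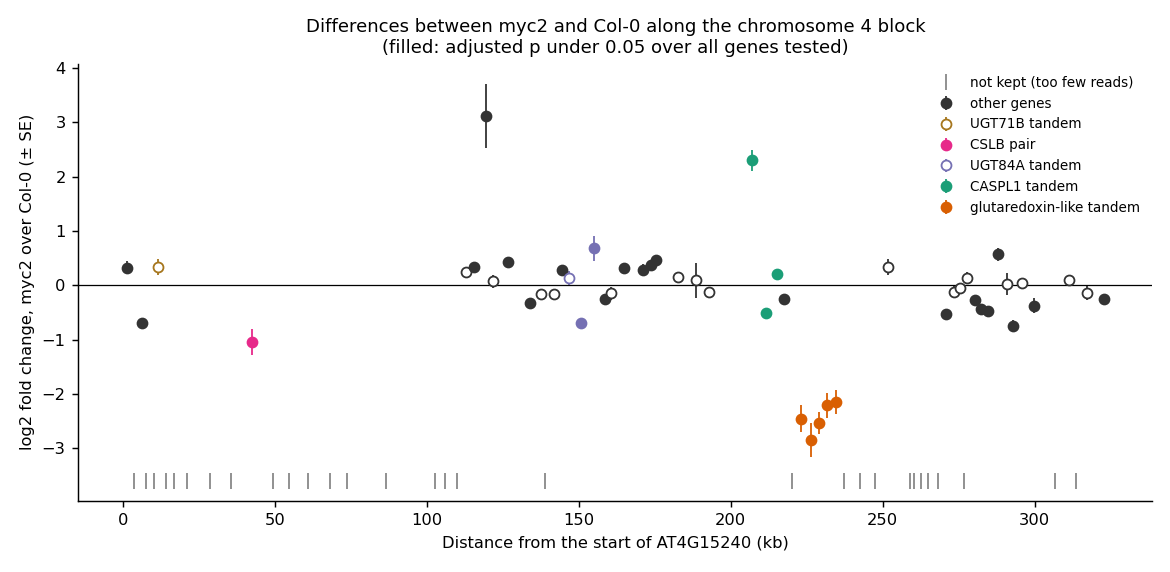
Log2 fold change of myc2 over Col-0 (vertical axis, ± SE) of the 50 tested members against distance along the block in kb (horizontal axis), coloured by tandem family, filled where the adjusted p was under 0.05, with ticks for the 30 genes not kept. The 5 glutaredoxin-like copies lie together between -2.84 and -2.15, CASPL1D1 stands at 2.30 and RTL1, on few reads, at 3.12.

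At the first edge, AT4G15240, annotated as a glycosyltransferase of the DUF604 family, had 10.2, 9.48 and 11.2 CPM in myc2 and 7.38, 8.34 and 8.81 CPM in Col-0. Its libraries did not overlap and it was called higher (log2 fold change 0.33, SE 0.115), a call that was lost with DESeq2, against Col-0 replicate 3 alone (0.22) and with any of Col-0 replicates 1 and 2 and the 3 myc2 replicates left out. At the other edge PRL1 (AT4G15900), which encodes a WD40 protein of a spliceosome-associated complex, had 90.7, 86.0 and 89.3 CPM in myc2 and 111, 96.9 and 110 CPM in Col-0. It was called lower (log2 fold change -0.26, SE 0.0689), though not without myc2 replicate 2.

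The threshold of 10 reads in 3 libraries separated members of few reads. Just inside it lay AT4G15390, with 10, 14 and 17 reads in myc2 and 5, 1 and 2 reads in Col-0, and RTL1, with 12, 15 and 14 reads in myc2 and 0, 2 and 2 reads in Col-0. Just outside it lay the small nucleolar RNA gene SNOR37-2, with 5, 8 and 10 reads in myc2 and 2, 1 and 11 in Col-0, and AT4G15720, a tetratricopeptide-like gene, with 12, 9 and 7 in myc2 and 6, 7 and 6 in Col-0. AT4G15710, a cystatin-like gene, had 4, 3 and 5 reads in myc2 and 6, 9 and 6 in Col-0 and was also left out. RTL1 and AT4G15390 passed only through the myc2 libraries. AT4G15670, a glutaredoxin-like gene described below, passed only through the Col-0 libraries, with 6, 8 and 7 reads in myc2 and 33, 49 and 58 in Col-0.

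Glutaredoxins are small proteins that use glutathione to reduce disulfides, and plants have a class of them, with ROXY1 and GRX480 as members, that binds TGA transcription factors. The block holds 5 glutaredoxin-like genes in tandem, AT4G15660 to AT4G15700, annotated as thioredoxin superfamily proteins with glutaredoxin activity. All lie on the plus strand, with 1803 to 2520 bases between neighbours, and each has a coding sequence of 309 bases. Pairs of copies were 88.3% to 93.2% identical over the coding sequence, with 251 positions shared by all 5 and 58 at which at least 1 copy differs. The first 150 coding bases, of TAIR10.1, are shown so that the copies can be told from each other, with the 31 positions that vary among the 5 in capitals.
AT4G15660 (chr4:8925928-8926077, plus strand): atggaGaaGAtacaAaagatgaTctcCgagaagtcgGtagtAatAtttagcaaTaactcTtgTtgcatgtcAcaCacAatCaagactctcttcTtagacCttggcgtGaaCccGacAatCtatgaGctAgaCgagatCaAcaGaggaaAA
AT4G15670 (chr4:8929237-8929386, plus strand): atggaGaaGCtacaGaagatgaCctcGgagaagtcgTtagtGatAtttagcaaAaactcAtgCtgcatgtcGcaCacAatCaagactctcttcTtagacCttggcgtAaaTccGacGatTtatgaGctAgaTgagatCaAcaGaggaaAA
AT4G15680 (chr4:8931813-8931962, plus strand): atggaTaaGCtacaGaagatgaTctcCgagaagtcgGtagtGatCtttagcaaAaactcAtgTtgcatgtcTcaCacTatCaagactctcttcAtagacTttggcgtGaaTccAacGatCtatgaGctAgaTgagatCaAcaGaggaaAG
AT4G15690 (chr4:8934444-8934593, plus strand): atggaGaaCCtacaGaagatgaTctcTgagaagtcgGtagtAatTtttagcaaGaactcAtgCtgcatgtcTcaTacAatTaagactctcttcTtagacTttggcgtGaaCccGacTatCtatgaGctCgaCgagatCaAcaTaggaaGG
AT4G15700 (chr4:8937545-8937694, plus strand): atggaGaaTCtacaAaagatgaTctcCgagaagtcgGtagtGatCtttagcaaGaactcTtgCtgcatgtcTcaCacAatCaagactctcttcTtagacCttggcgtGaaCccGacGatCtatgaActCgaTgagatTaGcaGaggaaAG
The capitals are spread through the stretch, mostly 1 base at a time. Of windows of 50 bases in the exon, 0.613% to 4.74% per copy occurred elsewhere in the genome, and of windows of 100 or 150 bases none did. How reads matching several copies were counted is not stated in the sources read, so the levels of single copies carry that uncertainty.

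All 5 copies were lower in every myc2 library than in any Col-0 library. AT4G15660 had 0.454, 0.659 and 0.457 CPM in myc2 and 2.30, 3.18 and 3.20 CPM in Col-0. AT4G15670 had 0.227, 0.293 and 0.267 CPM in myc2 and 1.41, 2.36 and 2.0 CPM in Col-0. AT4G15680, the copy of the highest Col-0 level per length, had 0.643, 0.769 and 0.457 CPM in myc2 and 3.71, 3.47 and 3.72 CPM in Col-0. In these the lowest Col-0 library was above the highest myc2 library by a wide gap, and Col-0 replicate 1 was the lowest Col-0 library of AT4G15660 and AT4G15670. AT4G15690 had 0.530, 0.403 and 0.610 CPM in myc2 and 2.47, 2.41 and 2.31 CPM in Col-0. AT4G15700 had 0.530, 0.732 and 0.533 CPM in myc2 and 2.52, 2.94 and 2.62 CPM in Col-0. The groups did not overlap in these either, and the spread was small beside the gap.

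The log2 fold changes were -2.46 (SE 0.245) for AT4G15660, -2.84 (SE 0.312) for AT4G15670, -2.53 (SE 0.209) for AT4G15680, -2.21 (SE 0.228) for AT4G15690 and -2.15 (SE 0.218) for AT4G15700, which is 4.44-fold to 7.18-fold lower in myc2. Neighbours in the order of these values lay within their summed standard errors of each other. Summed over the tandem there were 63, 78 and 61 reads in the myc2 libraries and 291, 298 and 402 reads in the Col-0 libraries, which is 2.52 ± 0.291 CPM in myc2 and 13.5 ± 1.01 CPM in Col-0 (SD, n = 3 each). The sum does not depend on how reads were divided among the copies, and it was 5.37-fold lower in myc2. Single copies rested on 6 to 21 reads per myc2 library.

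The make-up of the tandem varied less than its total. AT4G15680 held 24.5% ± 4.20 of the tandem's CPM in myc2 and 27.0% ± 2.87 in Col-0, AT4G15660 held 20.6% ± 2.17 in myc2 and 21.3% ± 2.41 in Col-0, and AT4G15690 held 20.9% ± 6.18 in myc2 and 17.8% ± 1.85 in Col-0 (SD, n = 3 each). AT4G15700 held 23.6% ± 1.80 in myc2 and 19.9% ± 0.852 in Col-0, and AT4G15670, the smallest, 10.4% ± 0.986 in myc2 and 14.1% ± 2.57 in Col-0. Only the shares of AT4G15700 did not overlap between the genotypes, and those of AT4G15670 overlapped in 1 myc2 and 1 Col-0 library.

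**Figure D2:**
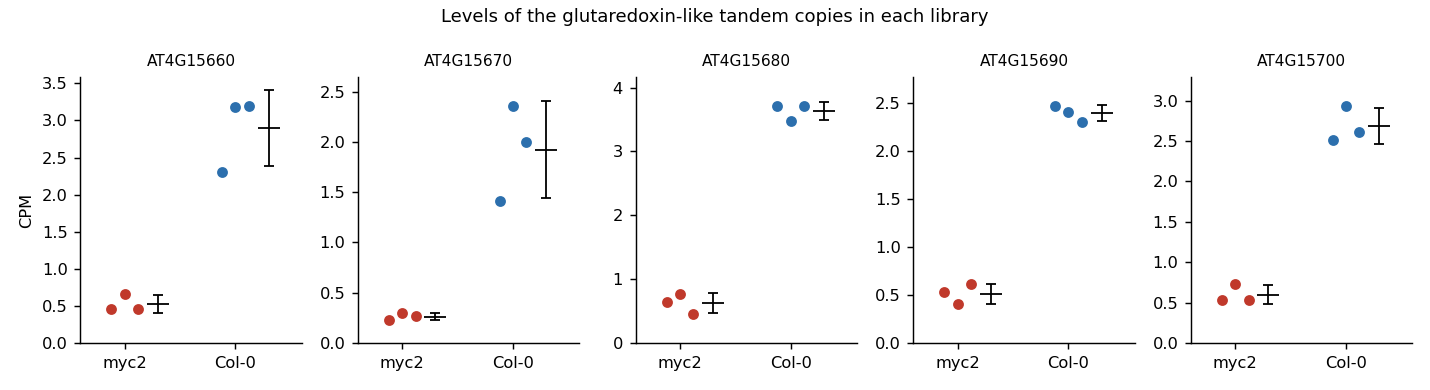
CPM (vertical axis) of the 5 glutaredoxin-like copies, 1 panel each, in the 3 myc2 libraries (left) and the 3 Col-0 libraries (right), with mean and SD beside the points and an axis of its own per panel that starts at 0. In every panel the myc2 libraries lie below the Col-0 libraries, at 0.227 to 0.769 CPM against 1.41 to 3.72 CPM.

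The 250 bases before each annotated start are shown because all 5 copies share one run there that few other genes have. The longest run common to the 5 windows was 11 bases, given in capitals.
AT4G15660 (chr4:8925321-8925570, plus strand): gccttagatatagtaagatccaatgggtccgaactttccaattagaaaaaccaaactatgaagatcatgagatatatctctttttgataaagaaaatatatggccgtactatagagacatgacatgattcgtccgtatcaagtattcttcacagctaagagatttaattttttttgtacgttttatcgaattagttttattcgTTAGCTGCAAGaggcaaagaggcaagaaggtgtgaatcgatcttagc
AT4G15670 (chr4:8928781-8929030, plus strand): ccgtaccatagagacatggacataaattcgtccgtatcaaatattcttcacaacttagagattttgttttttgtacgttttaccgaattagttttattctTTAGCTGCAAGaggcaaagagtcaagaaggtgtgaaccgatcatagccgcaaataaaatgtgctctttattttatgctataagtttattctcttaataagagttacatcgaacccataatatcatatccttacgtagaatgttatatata
AT4G15680 (chr4:8931367-8931616, plus strand): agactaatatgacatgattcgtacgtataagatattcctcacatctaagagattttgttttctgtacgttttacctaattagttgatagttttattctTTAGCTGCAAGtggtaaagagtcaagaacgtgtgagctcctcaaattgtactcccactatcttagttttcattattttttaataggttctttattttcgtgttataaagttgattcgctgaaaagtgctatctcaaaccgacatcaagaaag
AT4G15690 (chr4:8934046-8934295, plus strand): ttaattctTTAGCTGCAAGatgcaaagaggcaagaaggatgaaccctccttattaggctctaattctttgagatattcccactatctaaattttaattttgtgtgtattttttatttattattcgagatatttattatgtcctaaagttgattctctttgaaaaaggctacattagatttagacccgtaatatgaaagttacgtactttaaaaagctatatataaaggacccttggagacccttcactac
AT4G15700 (chr4:8937108-8937357, plus strand): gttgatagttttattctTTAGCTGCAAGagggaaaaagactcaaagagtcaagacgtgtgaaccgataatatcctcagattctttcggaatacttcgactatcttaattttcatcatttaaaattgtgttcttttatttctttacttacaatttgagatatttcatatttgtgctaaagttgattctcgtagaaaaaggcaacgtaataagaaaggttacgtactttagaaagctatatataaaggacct
The run lies 37 to 47 bases before the start in AT4G15660, 140 to 150 in AT4G15670, 142 to 152 in AT4G15680, 232 to 242 in AT4G15690 and 223 to 233 in AT4G15700, once in each. It was found in 6 of 26709 upstream windows of the same length, either strand counted, the other one being that of AT1G48095. The run was chosen because the copies share it, and copies of a duplicated stretch are alike for that reason alone, so the run is a description of the letters only. None of the 5 windows holds CACGTG, the G-box to which MYC2 is known to bind, or TGACG, the core of the sites of TGA factors, and the window of AT4G15680 holds CACGTT. These letters were searched in both strands, and their absence from a window of 250 bases says nothing of sites elsewhere.

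The glutaredoxin-like genes elsewhere in the genome, which played no part in the choice of the block, were less uniform. Of 16 listed, 15 were tested, with a median log2 fold change of -0.79. In myc2 4 were higher, beside 17.6% of all genes tested, and 6 were lower, beside 18.7%. AT5G18600 (log2 fold change -1.01, SE 0.0813, edgeR adjusted p = 2.02e-06) and AT3G62950 (-2.0, SE 0.208, adjusted p = 1.73e-05) fell, while AT2G47880 (0.97, SE 0.0951, adjusted p = 1.05e-05) and AT3G62960 (1.92, SE 0.207, adjusted p = 2.34e-05) rose. AT3G62950 and AT3G62960 are neighbours on the plus strand of chromosome 3, so that a pair of adjacent relatives there differed in direction. Before this pair, on the minus strand, lies AT3G62930, which fell (-1.58, SE 0.274, edgeR adjusted p = 0.000866). AT3G62950 had 0.871, 0.805 and 0.914 CPM in myc2 and 4.01, 2.75 and 3.61 CPM in Col-0, and AT3G62960 had 3.44, 3.84 and 3.20 CPM in myc2 and 0.768, 0.771 and 1.17 CPM in Col-0. AT2G30540 did not pass (-0.06, SE 0.158, edgeR adjusted p = 0.813). In the block the 5 neighbours all lay on one side, but since they were chosen for their difference no test of them against their relatives was made.

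**Figure D3:**
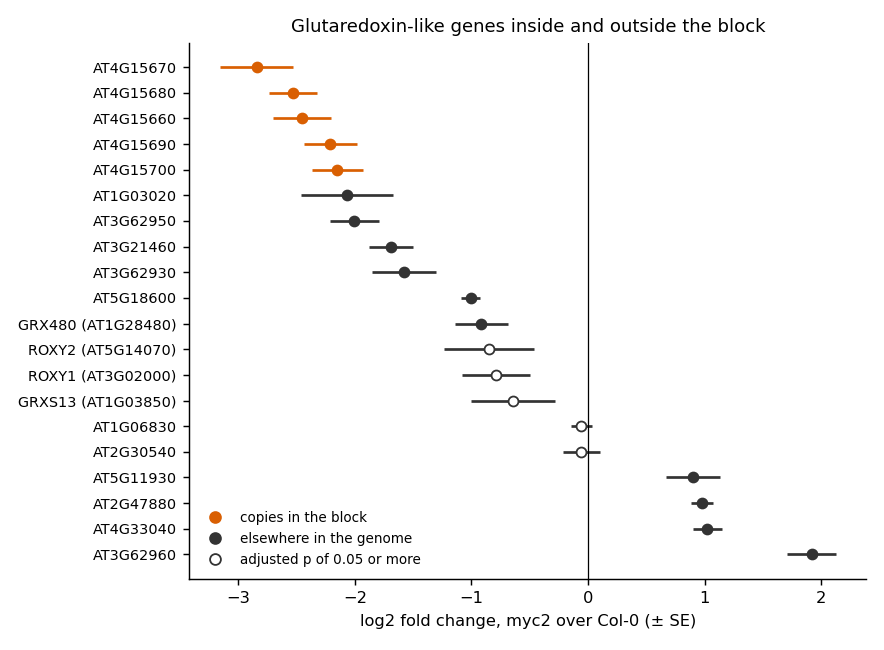
Log2 fold change of myc2 over Col-0 (horizontal axis, ± SE) of the 5 glutaredoxin-like copies in the block and the 15 tested relatives elsewhere, in order of their values (vertical axis), filled where the adjusted p was under 0.05. The copies in the block take the 5 lowest places, from -2.84 to -2.15, and the relatives run from -2.07 to 1.92.

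Next to this tandem lie 3 CASP-like genes, CASPL1D1, CASPL1E2 and CASPL1E1, which encode small membrane proteins related to the CASP proteins of the Casparian strip. All are on the plus strand, and CASPL1E2 and CASPL1E1 are 86.2% identical over their coding sequence, while CASPL1D1 is 49.6% and 51.2% identical to them. The copies did not move together. CASPL1D1 (AT4G15610) had 5.64, 5.09 and 5.07 CPM in myc2 and 0.725, 1.30 and 1.17 CPM in Col-0, on 133 to 149 reads per myc2 library and 17 to 34 per Col-0 library. Its libraries lay far apart, and the level was 4.93-fold higher in myc2 (log2 fold change 2.30, SE 0.193).

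CASPL1E2 (AT4G15620) had 15.0, 14.3 and 14.2 CPM in myc2 and 21.2, 20.2 and 20.6 CPM in Col-0. It was lower in every myc2 library (log2 fold change -0.51, SE 0.0827). CASPL1E1 (AT4G15630), the copy most like it, had 65.5, 68.5 and 70.0 CPM in myc2 and 57.1, 63.2 and 57.3 CPM in Col-0. This was a small difference without overlap in the other direction (log2 fold change 0.20, SE 0.0681), and its call was lost with DESeq2 and without Col-0 replicate 1 or any 1 of the myc2 libraries. Per kb of exon CASPL1E1 was the most abundant of the 3, at 65.9 CPM in myc2 and 57.4 CPM in Col-0, and CASPL1D1 the least, at 2.89 CPM in myc2 and 0.586 CPM in Col-0. No window of 50 bases in the exons of these 3 genes recurred elsewhere in the genome.

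Of 5 CASP-like genes listed elsewhere, 2 were tested and neither passed, with edgeR (0 at an unadjusted p under 0.05), DESeq2 (0) or limma-voom (0), and AT4G20390 among them stood at -0.09 on the log2 scale (SE 0.270, edgeR adjusted p = 0.828). With edgeR 36.3% of all genes tested were called. The Casparian strip genes CASP1 and CASP2 had too few reads to be tested.

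The block also carries glucosyltransferases, enzymes that move glucose from UDP-glucose onto small molecules. UGT84A1, UGT84A3 and UGT84A4 lie in tandem on the minus strand and belong to a group that makes glucose esters of hydroxycinnamic acids. UGT84A3 and UGT84A4 are 79.5% identical and UGT84A1 is 67.7% and 66.3% identical to them. UGT84A3 (AT4G15490) had 13.9, 12.6 and 11.2 CPM in myc2 and 20.7, 21.6 and 19.1 CPM in Col-0. It was lower in every myc2 library (log2 fold change -0.70, SE 0.102).

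UGT84A4 (AT4G15500) had 1.40, 1.61 and 1.87 CPM in myc2 and 0.853, 1.16 and 1.03 CPM in Col-0. The neighbouring copy was thus higher where UGT84A3 was lower (log2 fold change 0.68, SE 0.225), although its call was lost with DESeq2, against Col-0 replicate 3 alone (0.65) and without Col-0 replicate 1, myc2 replicate 2 or myc2 replicate 3. UGT84A1 (AT4G15480) had 3.71, 4.21 and 4.04 CPM in myc2 and 3.84, 3.33 and 3.75 CPM in Col-0. The groups overlapped and it was not called (log2 fold change 0.13, SE 0.138). UGT84A1 overlaps the F-box gene AT4G15475 on the other strand by 69 bases, and since nothing states whether the counts used strand, reads from the overlap cannot be told apart. Per kb of exon UGT84A3 led the 3, at 6.13 CPM in myc2 and 9.99 CPM in Col-0.

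**Figure D4:**
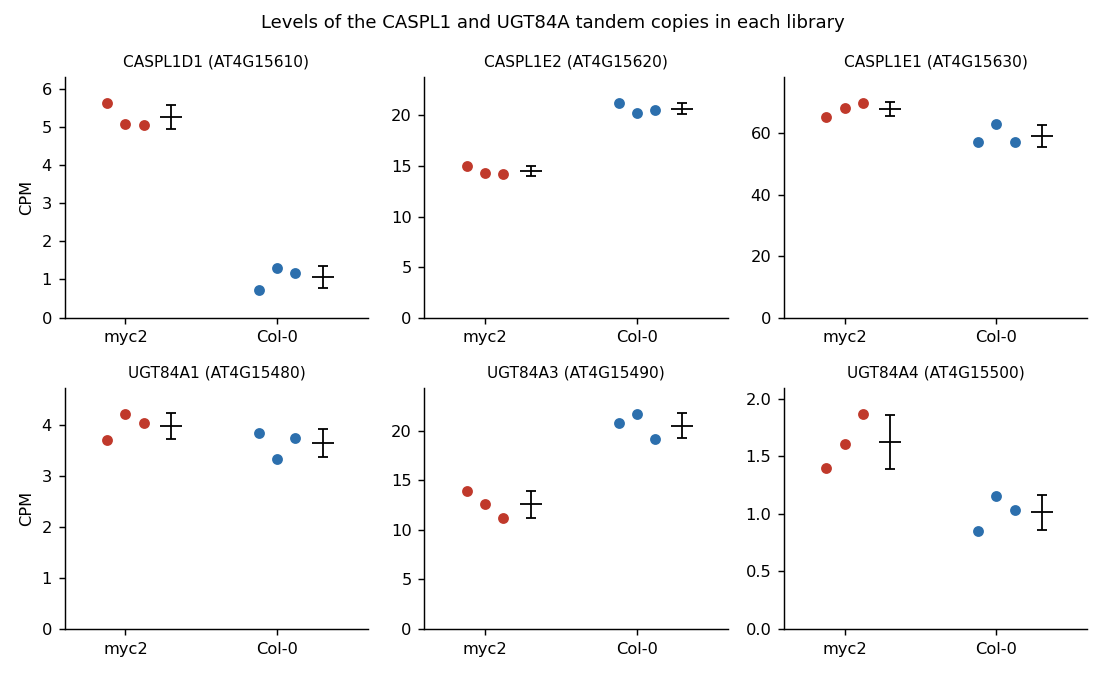
CPM (vertical axis) of the 3 CASPL1 copies (upper row) and the 3 UGT84A copies (lower row) in the 3 myc2 libraries (left in each panel) and the 3 Col-0 libraries (right), with mean and SD beside the points and axes that start at 0. CASPL1D1, CASPL1E1 and UGT84A4 are higher in all myc2 libraries, CASPL1E2 and UGT84A3 are lower, and the libraries of UGT84A1 overlap.

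The fourth member of the UGT84A group, UGT84A2 on chromosome 3, which makes sinapoyl glucose, was outside the choice of the block and rose (log2 fold change 0.55, SE 0.0631, edgeR adjusted p = 3.95e-05). Of the other listed relatives AT4G14090 fell (-0.52, SE 0.0935, adjusted p = 0.00118) and UGT75B1 did not pass (0.17, SE 0.303, edgeR adjusted p = 0.706).

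Of the UGT71B-type tandem only AT4G15260 was kept, with 5.56, 5.09 and 4.19 CPM in myc2 and 3.84, 4.34 and 3.65 CPM in Col-0. Its libraries overlapped and it was not called (log2 fold change 0.33, SE 0.149). The neighbours AT4G15270 and UGT71B5 had at most 4 reads in any library. IAGLU (AT4G15550), annotated as the glucosyltransferase of the auxin indole-3-acetic acid, had 58.2, 60.9 and 58.5 CPM in myc2 and 42.6, 42.5 and 42.7 CPM in Col-0. The Col-0 libraries agreed closely across runs and every myc2 library was higher (log2 fold change 0.47, SE 0.0638). It overlaps AT4G15545 on the other strand by 210 bases, and that gene was also called higher.

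BBX30 (AT4G15248) is a B-box microprotein gene; its product and that of its close relative BBX31 bind the flowering regulator CONSTANS. BBX30 had 13.0, 15.4 and 14.9 CPM in myc2 and 25.8, 24.1 and 20.6 CPM in Col-0. It was lower in every myc2 library (log2 fold change -0.70, SE 0.107), and against Col-0 replicate 3 alone the difference was -0.51. It is the only kept member with CACGTG in the 250 bases before its annotated start, shown with that hexamer and the reverse complement of CACGTT in capitals.
BBX30 (chr4:8708591-8708840, plus strand): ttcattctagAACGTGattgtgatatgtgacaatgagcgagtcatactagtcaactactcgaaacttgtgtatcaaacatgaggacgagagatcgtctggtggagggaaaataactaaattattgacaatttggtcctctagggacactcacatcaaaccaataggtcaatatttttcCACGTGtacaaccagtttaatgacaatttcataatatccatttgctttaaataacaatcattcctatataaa
CACGTG was found in 6.58% of 26709 upstream windows of this length and in 1 of 51 members. CACGTT was found in 7.60% of all windows and in 5 members, BBX30, UGT84A4, CASPL1E1, AT4G15680 and AT4G15765, which differed in direction. TGACG was found in 18.6% of all windows and in 8 members. A match is a description of the letters and not a site. BBX31 (AT3G21890), outside the block, went the other way (log2 fold change 0.58, SE 0.116, edgeR adjusted p = 0.00212). It had 17.2, 18.3 and 18.1 CPM in myc2 and 12.7, 13.4 and 9.88 CPM in Col-0. The size of its difference varied with the Col-0 run, replicate 3 lying below replicates 1 and 2 (log2 difference -0.40), but the genotypes did not overlap. BBX9, beside BBX30, had at most 2 reads in a library.

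The genes listed here for the triterpene cluster were almost silent in these shoots. The list comprises the oxidosqualene cyclases PEN1 and BARS1, which fold oxidosqualene into arabidiol and baruol, with P450 genes of the CYP705A and CYP702A families beside them. Acyltransferase genes were not on it. None of its 10 genes in the files was kept: they had 32 reads in all in the myc2 libraries and 18 in the Col-0 libraries, at most 8 in any library, and CYP705A2 and CYP705A3 had 0 reads throughout. PEN1 had 0, 0 and 2 reads in myc2 and 0, 1 and 0 in Col-0, and BARS1 had 0 reads in all myc2 libraries and 0, 2 and 0 in Col-0. The most read members were CYP702A6, with 1, 8 and 4 reads in myc2 and 1, 0 and 3 in Col-0, and CYP705A4, with 3, 4 and 2 in myc2 and 3, 1 and 5 in Col-0. At this depth no difference in these 10 genes was detectable.

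Within the span of the cluster lie 2 kept genes that were not on its list, which held only cyclases and P450s. AT4G15390, a gene of the HXXXD acyltransferase family, had 41 reads in myc2 and 8 in Col-0, and every myc2 library was above every Col-0 library, but it had too few reads for the main test. Its relative BIA1, 54.5% identical to it, had 5 reads in myc2 and 2 in Col-0. CSLB06 (AT4G15320), a cellulose synthase-like gene, had 1.21, 0.879 and 0.762 CPM in myc2 and 2.01, 1.64 and 2.20 CPM in Col-0. It was 2.06-fold lower in myc2 (log2 fold change -1.05, SE 0.235), with no overlap, on 20 to 32 reads per myc2 library and 34 to 64 per Col-0 library. Its paralogue ATCSLB05, 74.1% identical, had 1 read in the 6 libraries together. In the exons of CSLB06, 25.1% of windows of 50 bases and 14.5% of windows of 150 bases recurred elsewhere in the genome, so its level is uncertain if reads matching several places were dropped or divided.

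Of the other CSLB genes CSLB03 fell in myc2 (log2 fold change -1.5, SE 0.0827, edgeR adjusted p = 7.71e-08) and CSLB04 did not pass (0.18, SE 0.0698, adjusted p = 0.0642). Of 15 other listed genes of oxidosqualene cyclases and triterpene clusters, 7 were tested. LUP1, a lupeol synthase gene, rose (0.58, SE 0.0679, edgeR adjusted p = 4.29e-05), and CYP708A2 of the thalianol cluster rose on few reads (1.09, SE 0.329, adjusted p = 0.0228). LUP5 fell (-2.05, SE 0.409, edgeR adjusted p = 0.00219), also on few reads, 12, 6 and 3 in myc2 and 26, 29 and 25 in Col-0. CAS1, which makes the sterol precursor cycloartenol, did not pass (0.02, SE 0.0600, edgeR adjusted p = 0.838). The call of CYP708A2 was lost with DESeq2, against Col-0 replicates 1 and 2 alone and without any 1 of Col-0 replicates 1 and 3 and myc2 replicates 2 and 3.

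**Figure D5:**
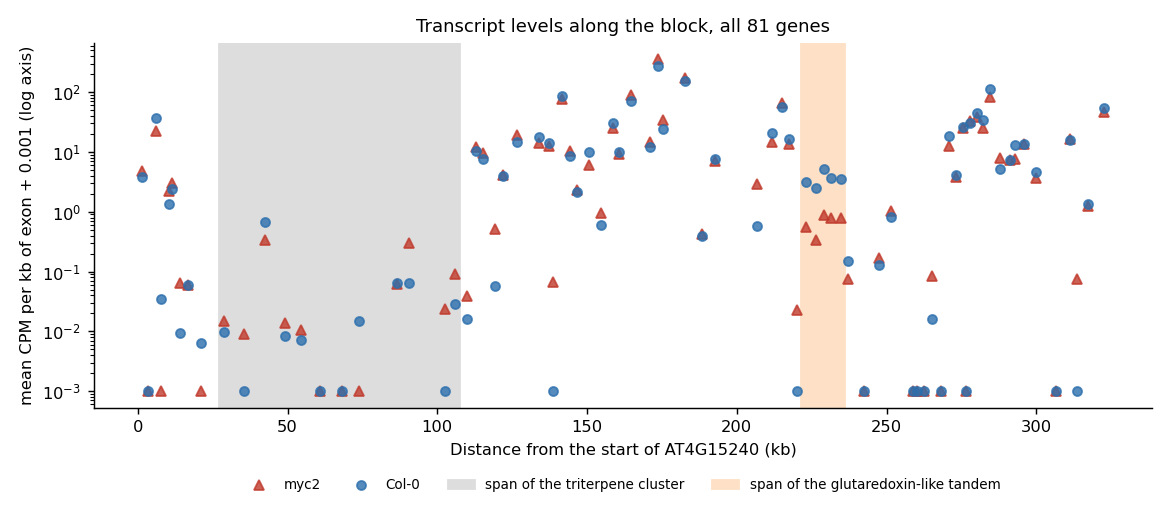
Mean CPM per kb of exon plus 0.001 (vertical log axis) of all 81 genes of the block in myc2 (triangles) and Col-0 (circles) against distance along the block in kb (horizontal axis), with the spans of the triterpene cluster and of the glutaredoxin-like tandem shaded. The points in the first span lie low, the highest being CSLB06 and AT4G15390, which were not on the list of cluster genes, and those in the second lie apart by genotype, with myc2 below.

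The 5 most abundant members by CPM were AT4G15545, CLA1, PPDK, AT4G15470 and PRL1. AT4G15545, annotated as a PH-response transcription factor, had 529, 547 and 538 CPM in myc2 and 396, 395 and 454 CPM in Col-0. It was higher in every myc2 library (log2 fold change 0.37, SE 0.0652). CLA1, the deoxyxylulose-phosphate synthase that opens the plastid MEP route to isoprenoids, had 515, 502 and 520 CPM in myc2 and 476, 423 and 483 CPM in Col-0. The libraries did not overlap, yet the difference was small and not called (log2 fold change 0.15, SE 0.0627).

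PPDK (AT4G15530), which regenerates phosphoenolpyruvate from pyruvate, had 325, 323 and 332 CPM in myc2 and 275, 263 and 243 CPM in Col-0. It was called higher (log2 fold change 0.33, SE 0.0610). AT4G15470, a Bax inhibitor family gene, had 97.7, 90.8 and 92.1 CPM in myc2 and 91.6, 104 and 119 CPM in Col-0. It overlapped and was not called (log2 fold change -0.17, SE 0.0873).

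Of the listed MEP genes outside the block 7 were tested. DXR, the step after CLA1, fell slightly (log2 fold change -0.29, SE 0.0549, edgeR adjusted p = 0.00163), and HDR, the final step, did not pass (0.04, SE 0.0840, adjusted p = 0.723). The call for DXR was the only one among the 7, with 0 higher and 3 at an unadjusted p under 0.05, and limma-voom called 2 and DESeq2 1. With edgeR 36.3% of all genes tested were called.

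RTL1 (AT4G15417), a gene of the RNase III type whose product is known to limit small RNAs, had the largest fitted change, on few reads. It had 0.454, 0.549 and 0.533 CPM in myc2 and 0, 0.0964 and 0.0688 CPM in Col-0, from 41 reads in the myc2 libraries together and 4 in the Col-0 libraries. The libraries did not overlap, and the fitted log2 fold change of 3.12 (SE 0.594) depends on how low counts are treated, with values of 2.60 to 3.59 when single libraries were left out.

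Downstream of the glutaredoxin-like tandem lie members with roles in signalling and stress. RALFL33 (AT4G15800), a gene of the RALF peptides that act through receptor kinases at the cell surface, had 28.4, 32.2 and 31.4 CPM in myc2 and 38.1, 42.6 and 44.2 CPM in Col-0. It was lower in every myc2 library (log2 fold change -0.44, SE 0.0832). None of the 6 other RALF genes tested passed, with edgeR (0 at an unadjusted p under 0.05), DESeq2 (0) or limma-voom (0), and RALFL24 stood at 0.02 (SE 0.119, edgeR adjusted p = 0.926). With edgeR 36.3% of all genes tested were called. HSBP, the gene of a protein that binds heat shock factors, lies next to RALFL33 and had 65.7, 72.4 and 71.3 CPM in myc2 and 92.1, 91.9 and 106 CPM in Col-0. It too was lower without overlap (log2 fold change -0.47, SE 0.0742).

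MO1 (AT4G15760), a monooxygenase gene, had 20.2, 21.2 and 22.4 CPM in myc2 and 30.3, 30.3 and 31.1 CPM in Col-0. The difference was steady across the Col-0 runs (log2 fold change -0.52, SE 0.0768). The related gene AT4G15765 next to MO1, which has a shorter coding sequence, was not called (-0.12, SE 0.105). AT4G15830, an ARM repeat gene, had 9.31, 8.68 and 8.15 CPM in myc2 and 15.2, 16.0 and 13.1 CPM in Col-0. Among the tested members downstream of AT4G15700 it had the most negative value (log2 fold change -0.76, SE 0.110). It overlaps AT4G15820 on the other strand by 76 bases. AT4G15810, a P-loop nucleoside triphosphatase gene, went the other way, with 21.0, 23.8 and 23.3 CPM in myc2 and 16.9, 16.9 and 12.3 CPM in Col-0. It was the only member called higher downstream of AT4G15700 (log2 fold change 0.57, SE 0.121).

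HPL1 (AT4G15440), annotated as a hydroperoxide lyase, had 26.5, 26.5 and 25.5 CPM in myc2 and 30.0, 32.0 and 36.0 CPM in Col-0. It was modestly lower (log2 fold change -0.32, SE 0.0841), and its call was lost without myc2 replicate 3. Of the 7 lipoxygenase and allene oxide synthase genes listed elsewhere, 5 fell, beside 18.7% of all genes tested. Among the 5 were LOX4 (log2 fold change -3.08, SE 0.0740, edgeR adjusted p = 8.32e-11), LOX3 (-2.04, SE 0.0818, adjusted p = 5.36e-09), LOX2 (-1.06, SE 0.0543, adjusted p = 3.81e-08) and AOS (-0.86, SE 0.0585, adjusted p = 4.39e-07). LOX6 did not pass (0.05, SE 0.0726, edgeR adjusted p = 0.613).

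AT4G15890, the gene that the annotation gives as the nearest match of the condensin subunit gene AT3G57060, overlapped between the genotypes and was not called (log2 fold change -0.14, SE 0.127). Of the 7 condensin subunit genes listed elsewhere 3 fell, beside 18.7% of all genes tested. These were AT3G57060 (-0.60, SE 0.105, edgeR adjusted p = 0.000944), EMB2656 (-0.54, SE 0.106, adjusted p = 0.00185) and EMB2795 (-0.40, SE 0.123, adjusted p = 0.0242), and SMC2 did not pass (-0.06, SE 0.114, edgeR adjusted p = 0.702). EMB2795 lost its call against Col-0 replicate 3 alone and without Col-0 replicate 2, myc2 replicate 2 or myc2 replicate 3.

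The smallest differences were those of AT4G15820 (log2 fold change 0.02, SE 0.204), AT4G15770, an RNA binding protein gene (-0.05, SE 0.0801), AT4G15840, a BTB/POZ domain gene (0.05, SE 0.0727), AT4G15420, a ubiquitin fusion degradation gene (0.08, SE 0.119), and ESD4, a SUMO protease gene (0.09, SE 0.0842). In each of these the libraries of the genotypes overlapped. AT4G15820 also differed between the Col-0 libraries, so that its value rests on which of them it is set against: 0.65 against Col-0 replicate 3 and -0.23 against Col-0 replicates 1 and 2. Of the other members not described singly, the called ones were AT4G15430, ATB' GAMMA, AT4G15475 and UMAMIT38, with log2 fold changes of 0.28 to 0.43, and AT4G15640, PPD1, AT4G15790 and RH1, with -0.37 to -0.25, and of these 8 only AT4G15430 kept its call in all 16 alternatives run. The 7 other members that were not called had log2 fold changes between -0.16 and 0.35.

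Differences between the Col-0 runs are a description too, since the block was chosen on calls made with the same 3 Col-0 libraries, and a call is favoured where these are alike. Between Col-0 replicate 3 and Col-0 replicates 1 and 2, 6 of 51 members were called, beside 15.0% of all 19569 genes (edgeR quasi-likelihood test, replicate 3 being assumed to vary as the other groups do). Lower in replicate 3 were 3 members, beside 8.90% of all genes, and higher were 3, beside 6.10%. AT4G15820 (log2 difference -0.88, SE 0.145), AT4G15810 (-0.46, SE 0.124) and VAMP724, a gene of vesicle fusion (-0.44, SE 0.0959), were lower in replicate 3. AT4G15470 (0.29, SE 0.0754), UMAMIT38, a transporter gene (0.31, SE 0.104), and AT4G15545 (0.20, SE 0.0537) were higher. In a fit with the runs as separate groups, 27 of the 50 members were called against both Col-0 runs and in one direction, beside 29.6% of all 18961 genes. Of these, 10 were higher, beside 13.7% of all genes, and 17 were lower, beside 15.9%. No member was called in opposite directions, and both comparisons share the myc2 libraries. The 5 glutaredoxin-like copies lay at -2.81 to -2.17 against Col-0 replicates 1 and 2 and at -2.90 to -2.12 against Col-0 replicate 3, and CASPL1D1 lay at 2.39 against Col-0 replicates 1 and 2 and at 2.16 against Col-0 replicate 3.

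Of the 30 genes not kept, 10 had 0 reads in all 6 libraries. Beside CYP705A2 and CYP705A3 they included the pair of C2-domain genes AT4G15740 and AT4G15755, the SCR-like peptide genes SCRL10 and SCRL11, and TS1, annotated as a terpene synthase. A count of 0 says only that no read was counted there.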

How the data were processed

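The poly(A) RNA of 3 myc2 and 3 Col-0 shoot samples was sequenced, and the submitters' processing notes name fastp, HISAT2, SAMtools and StringTie and the TAIR10 build. Tool versions, the counter, its strand setting and its gene models were not given in the sources used here. Whole-number read counts per gene and library were deposited by the authors with no coordinates, and their table of their own comparison (fold changes and p-values) was not used. Positions, names and sequences were taken from RefSeq for TAIR10.1. Counts were scaled by TMM and filtered with filterByExpr, and genotypes were compared with the quasi-likelihood test of edgeR 4.0.16 (R 4.3.3, robust, genotype as the only term) with Benjamini-Hochberg adjustment over all genes at 0.05. The scripts were tested on simulated data. DESeq2 1.42.0, limma-voom (limma 3.58.1), other scalings and filters, the replicate number as a block, each replicate left out and each Col-0 run alone were the alternatives. Named were MYC2, the kept members of the tandem families and of the triterpene cluster, called members of at least 2-fold, the 5 of highest CPM, the 5 of smallest change, the genes at the edges and at the count minimum, and of each list of relatives up to 4 that passed and 1 that did not; others described singly (IAGLU, HPL1, RALFL33, HSBP, MO1, AT4G15810 and AT4G15830) were chosen after their values were seen. AT3G62930 was named as well, for its position beside other listed relatives, and was not among the relatives checked for changes of sign. The members and gene lists were chosen with earlier results of these data known. Acyltransferases elsewhere in the genome were not analysed here. Counting error sets the precision of genes with few reads. 1 gene of the root marker and CASP-like lists is not reported here.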

Additional observations from a re-analysis of the deposited data

How the results depend on the processing

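Of the 32 called members, 20 (7 higher and 13 lower in myc2) kept their call in all 16 alternatives. The 12 others lost it at least once, and 0 changed direction. DESeq2 lost 5 of the calls. With single replicates left out, 8 to 16 members were higher in myc2, 8 of them without myc2 replicate 3, and 14 to 19 were lower, while 5032 to 8417 of all genes were called. Between the Col-0 runs, DESeq2 called 1945 genes against 2935 with edgeR, and with single replicates left out 2400 to 3014 were called. The filter of 10 reads in 3 libraries admitted AT4G15390 and gave 14 higher members.

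The replicate numbers do not pair the samples: the deviations of libraries of the same number correlated at -0.025, -0.002 and 0.023, and not every sample correlated best with its own number. With the replicate number as a block, 13 members were higher, 18 were lower and 6688 of all genes were called, and the calls of CASPL1E1 and AT4G15640 were lost.

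Among the named relatives elsewhere that were checked, only genes that had not passed the test changed sign. The other relatives on the lists were not checked for this. With single replicates left out, the log2 fold change ran from -0.17 to 0.61 for UGT75B1, from -0.0138 to 0.0480 for CAS1, from -0.16 to 0.15 for AT2G30540, from -0.0410 to 0.11 for RALFL24, from -0.24 to 0.16 for AT4G20390, from -0.0626 to 0.10 for HDR and from -0.18 to 0.0561 for SMC2. Against Col-0 replicates 1 and 2 it was -0.17 for UGT75B1, 0.15 for AT2G30540, -0.0230 for RALFL24 and -0.0632 for HDR, and against Col-0 replicate 3 it was 0.02 for AT4G20390 and 0.20 for SMC2. The cause was not tested. Genes of few reads, such as single glutaredoxin-like copies and RTL1, are limited by counting error.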
